A study of Macaca mulatta with 4 samples.

Results

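HIF-1α peaks that lay within 2 Mb of a chromosome end were examined in infarcted heart of male rhesus macaques, early and late after the coronary artery was tied off. The binding data are 1 list of called HIF-1α peaks from heart at 6 h and 1 list from heart at 4 weeks, made by chromatin immunoprecipitation and sequencing (ChIP-seq). All animals had the infarct, and each list was called, as the file names say, against input chromatin (no antibody) from its own time point. The series has 4 samples, 1 ChIP and 1 input library per time point, with no uninjured heart and no replicate among them, and how many animals stand behind a library is not given in the sources used here. A peak was a member if its midpoint was less than 2 Mb from position 0 (the start end) or from the largest peak end of either list on that chromosome (the far end). Chromosomes 1 to 20 were used except 16, 19 and 20, which left 17 chromosomes with 34 ends. By this rule 444 peaks at 6 h and 321 at 4 weeks were members, 765 in all, out of 10645 peaks on these chromosomes and 20750 peaks in the series. The lists give positions only, so read depth is unknown, and fewer cells with bound HIF-1α cannot be told apart from less binding per cell. Intervals below are 95% intervals of counting alone, which treat peaks as independent, as neighbouring peaks are not. Markers of heart tissue or its cell types were not analysed here.

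HIF-1α is the oxygen-regulated subunit of HIF-1, a transcription factor that is degraded when oxygen is ample and accumulates when it is short. HIF-1 binds short elements that contain a CpG dinucleotide, and it turns on genes for glycolysis, vessel growth and oxygen supply. A chromosome ends in telomeric repeats, and next to these lies the subtelomere, which in primates is often rich in GC, in genes and in blocks copied between chromosomes. Copied blocks are hard to assemble, and reads from them are hard to place. The start and far ends used here are ends of assembled sequence and need not be telomeres, and the far end, set by the last peak, may lie short of the assembled end.

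The first question is how dense HIF-1α peaks were near the ends. They were denser there than along the rest of the same chromosomes at both times. The zones within 2 Mb of an end made up 68 Mb, or 2.76% of the chromosome extents, and held 6.20% of the 6 h peaks (5.65 to 6.78%) and 9.22% of the 4-week peaks (8.28 to 10.2%). At 6 h the density was 6.53 peaks per Mb near the ends (5.94 to 7.17) against 2.80 elsewhere (2.74 to 2.87), a ratio of 2.33. At 4 weeks it was 4.72 per Mb (4.22 to 5.27) against 1.32 (1.27 to 1.36), a ratio of 3.58. The intervals near and away from the ends did not overlap in either list. In each list 16 of the 17 chromosomes were denser near their ends than elsewhere. The exception both times was chromosome 13, with ratios of 0.869 at 6 h and 0.513 at 4 weeks. Chromosome 8 had the highest ratios, 8.61 at 6 h and 11.2 at 4 weeks.

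Density was then followed toward the ends. At 6 h the density over both ends was 17.6 peaks per Mb in the outermost 0.1 Mb (13.5 to 22.7), 10.2 from 0.1 to 0.25 Mb (7.61 to 13.4), and 6.94 from 0.25 to 0.5 Mb (5.28 to 8.95). From 1.5 to 2 Mb it was 4.82 (3.84 to 5.99). The 4-week density over both ends was 5.88 per Mb in the outermost 0.1 Mb (3.59 to 9.08), 6.27 from 0.1 to 0.25 Mb (4.29 to 8.86), 5.35 from 0.5 to 1 Mb (4.31 to 6.57), and 3.18 from 1.5 to 2 Mb (2.39 to 4.14). In the outermost 0.1 Mb alone the 4-week density was 3.53 on the start side (1.30 to 7.68) and 8.24 on the far side (4.50 to 13.8). This was the highest of the 4-week bins on the far side, but 7 of the 14 peaks in it set the far ends. Those peaks lie there by construction, so that rank rests partly on how the far end was set.

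Just outside the 2 Mb the 6 h density over both ends was no lower than just inside, but this came from the start side. It was 5.09 from 2 to 3 Mb (4.36 to 5.91), with 6.76 on the start side. On the far side it was 3.41 (2.59 to 4.41), against 4.94 from 1.5 to 2 Mb (3.56 to 6.68). Of the 115 start-side peaks from 2 to 3 Mb, 52 formed a close run on chromosome 17. From 5 to 10 Mb on the start side the 6 h density was 5.55 (5.06 to 6.08). The 472 peaks of that stretch included close runs of 44, 14, 14, 11 and 6 peaks, also on chromosome 17, and 1 of 21 on chromosome 2. Runs of 9 peaks or fewer lay on chromosomes 8, 11, 14 and 15. The 4-week density from 2 to 3 Mb was 2.53 (2.02 to 3.12). Beyond 20 Mb the density was 2.61 (2.53 to 2.68) at 6 h and 1.24 (1.19 to 1.29) at 4 weeks.

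**Figure D1:**
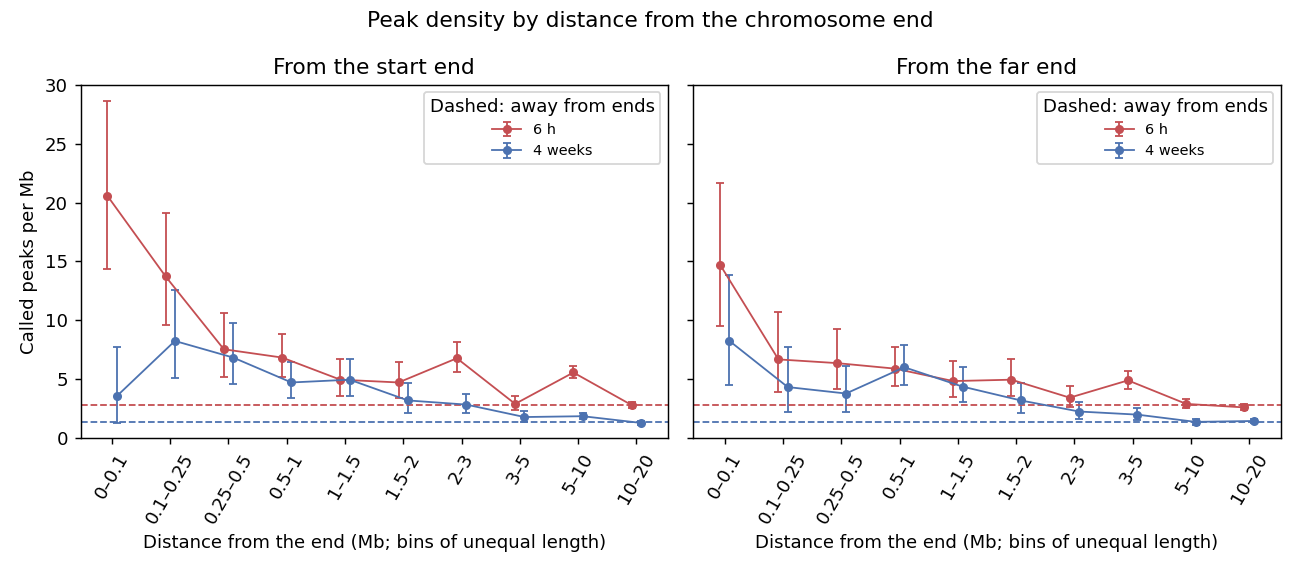
Called HIF-1α peaks per Mb (vertical axis) by distance from the start end (left) or the far end (right) in bins of unequal length, summed over 17 chromosomes. Bars are exact Poisson 95% intervals. Dashed lines give the density 2 Mb or more from an end, 2.80 per Mb at 6 h and 1.32 at 4 weeks. The outermost 0.1 Mb is the highest bin at 6 h on both sides and at 4 weeks on the far side only. On the far side 10 of its 25 peaks at 6 h and 7 of its 14 at 4 weeks set the ends by construction.

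The outermost 0.1 Mb held 35 peaks at 6 h and 6 at 4 weeks on the start side, and 25 and 14 on the far side. Chromosome 8 alone gave 21 of the 35 start-side peaks at 6 h, and without it 14 at 6 h and 5 at 4 weeks remained. The far side depended little on that chromosome, with 24 and 14 peaks left without it. The far side, however, holds 1 peak per chromosome by construction, since the last peak sets the end. The 6 h list set 10 of these far ends and the 4-week list 7. The widest 6 h member in this stretch was one of these end-setting peaks, on chromosome 9 at 129850636 to 129851497 (862 bp). The next widest were 2 neighbours on chromosome 8 at 46736 to 47585 (850 bp) and 42702 to 43535 (834 bp), neither called at 4 weeks. The widest 4-week member there, on chromosome 14 at 49100 to 49444 (345 bp), was called at 6 h as well. All coordinates are in the build of the files, which is not given in the sources used here, and are counted from 1.

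The second question is whether the start end differed from the far end. Over all chromosomes the start ends held somewhat more peaks at 6 h, a difference at the edge of counting error, and the ends were close to even at 4 weeks. At 6 h 242 peaks lay near start ends and 202 near far ends, a start-end part of 54.5% (49.7 to 59.2%). At 4 weeks the numbers were 165 and 156, a start-end part of 51.4% (45.8 to 57.0%). Both intervals included 50%, but at 6 h this depended on the setting. Of 27 other settings 12 gave a 6 h interval above 50%, among them distances of 1 Mb (57.3%, 51.3 to 63.2%) and 3 Mb (57.9%, 53.9 to 61.8%) and leaving out the peaks that set the far ends (55.8%, 50.9 to 60.5%). With isolated peaks only (a distance of over 10 kb to any neighbour in their list), the 6 h part was 48.2% (42.5 to 54.0%), on the other side of 50%. Without chromosome 8 the 4-week part was 58.3% (52.2 to 64.2%), an interval above 50%, and the other 26 settings gave 4-week intervals that included 50%.

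Single chromosomes were far less even, and mostly in the same sense at both times. The end with more peaks was the same in the 2 lists on 13 of 17 chromosomes, the start end on 5 and the far end on 8. Each far end includes, by construction, the 1 peak that sets it. Chromosome 5 had 16 peaks at 6 h and 20 at 4 weeks near its start end, against 0 and 2 near its far end. Chromosome 1 had 25 and 29 near the start end against 10 and 5. Chromosome 15 had 25 and 22 against 11 and 4, chromosome 14 had 20 and 18 against 6 and 2, and chromosome 3 had 12 and 15 against 3 and 6. These 5 chromosomes were all richer at the start end in both lists.

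The chromosomes with a richer far end in both lists were 2, 4, 6, 7, 10, 11, 13 and 18. Near the start end of chromosome 2 lay 3 early peaks and no late one, against 13 and 7 near its far end. Chromosome 7 had 9 and 3 against 19 and 11, and chromosome 6 had 16 and 7 against 22 and 10. On chromosomes 10, 11 and 13 the ends differed by 4 peaks or fewer in each list. At 6 h chromosome 11 had 10 against 11, and 1 of the 11 set its far end, so this rank rests on construction. Chromosome 4 had 4 and 3 at the start end against 10 and 7, and chromosome 18 had 8 and 2 against 10 and 8.

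The 4 remaining chromosomes were 8, 9, 12 and 17, where the richer end was not the same at both times. On chromosome 17 the start end had 9 peaks at 6 h and 11 at 4 weeks, against 15 and 7 at the far end. Chromosome 12 was near even, with 11 and 8 at the start end against 10 and 12. Chromosome 9 had 11 and 1 at the start end against 11 and 8. Chromosome 8 had the widest gap, with 44 and 7 at the start end against 25 and 43 at the far end. Across the 34 ends, which share the assembly and are not replicates, the numbers of 6 h and 4-week peaks had a Spearman rho of 0.75. Across the 1189 windows of 2 Mb that tile the rest of these chromosomes, rho was 0.55. The windows held fewer peaks than the ends (medians of 4 and 2 against 11 and 7), and low counts weaken a rank correlation. The rho values therefore cannot show that the lists were more alike at the ends.

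**Figure D2:**
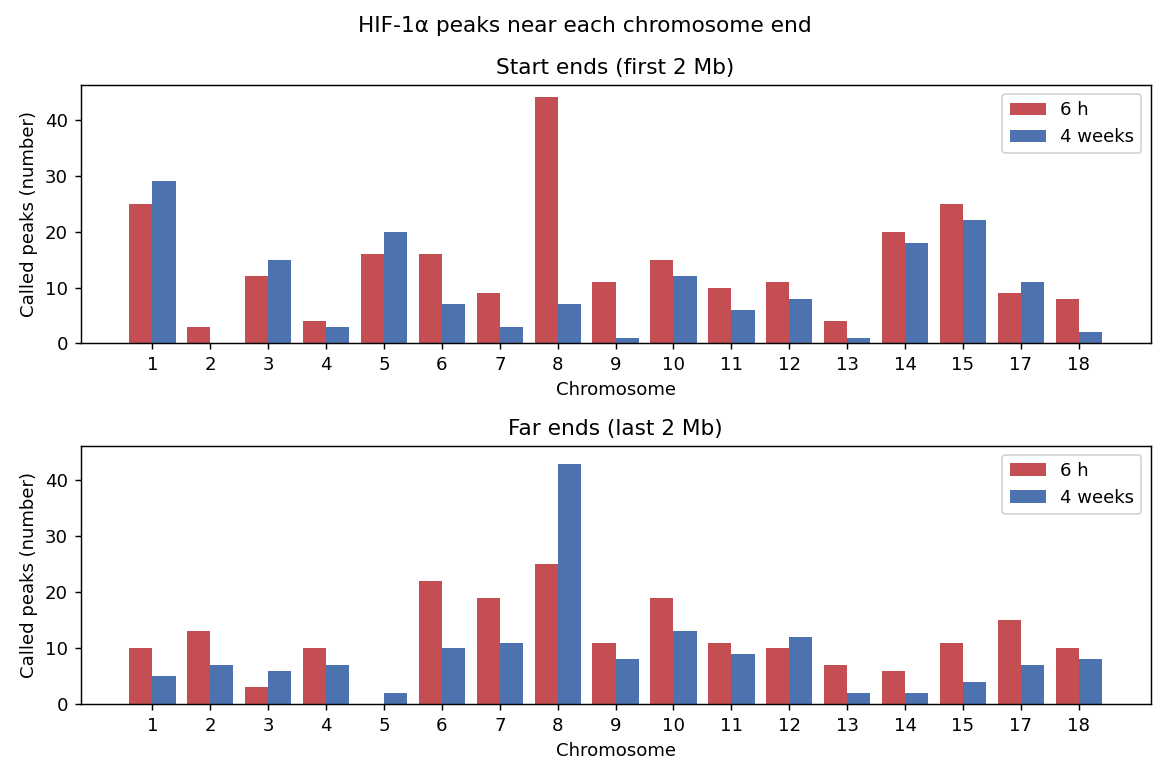
Number of called HIF-1α peaks (vertical axis) in the first 2 Mb (top) and the last 2 Mb (bottom) of each of 17 chromosomes at 6 h (red) and 4 weeks (blue), 1 library each. The highest bars are the start end of chromosome 8 at 6 h (44) and its far end at 4 weeks (43).

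Peak-rich stretches were common among the ends. At least 10 peaks of the 4-week list lay at 12 of 34 ends (35.3%), against 1.18% of the 2 Mb windows away from ends. At least 10 peaks of the 6 h list lay at 24 ends (70.6%), against 15.6% of those windows. An end had a median of 11 peaks at 6 h (0 to 44) and 7 at 4 weeks (0 to 43), where windows away from ends had medians of 4 and 2. The 4-week window with most peaks away from ends had 17, fewer than were found at 5 of the ends. The richest 5 ends held 31.8% of the 6 h members and 41.1% of the 4-week members. At 6 h these were the start ends of chromosomes 8 (44), 1 (25) and 15 (25) and the far ends of chromosomes 8 (25) and 6 (22). At 4 weeks they were the far end of chromosome 8 (43) and the start ends of chromosomes 1 (29), 15 (22), 5 (20) and 14 (18).

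The third question is how the balance between early and late infarct near the ends compared with that elsewhere. Peaks of the late infarct made up a larger part of the peaks near ends than of the other peaks. Of the 765 members 41.96% came from the 4-week list (38.4 to 45.5%), against 32.0% of the 9880 peaks away from ends (31.1 to 32.9%). There were thus 1.38 early peaks for each late peak near the ends and 2.13 elsewhere. Start ends (40.5%, 35.7 to 45.5%) and far ends (43.6%, 38.4 to 48.9%) had overlapping intervals, and both lay above the value elsewhere. Each time point is 1 library against its own input, so the difference in balance has no replicate check.

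The difference was spread over many chromosomes. On 14 of 17 the 4-week part was higher near the ends than away from them. It was 58.3% against 34.3% on chromosome 3, 57.9% against 34.6% on chromosome 5, and 49.3% against 31.3% on chromosome 1. The intervals near and away from ends did not overlap on these 3 chromosomes and overlapped on the other 14. It was lower near the ends on chromosome 13 (21.4 against 31.6%), and slightly lower on chromosomes 2 (30.4 against 30.7%) and 9 (29.0 against 29.3%). Among the 14 with a higher value, the margin was small on chromosomes 7 (33.3 against 32.4%) and 6 (30.9 against 29.6%).

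**Figure D3:**
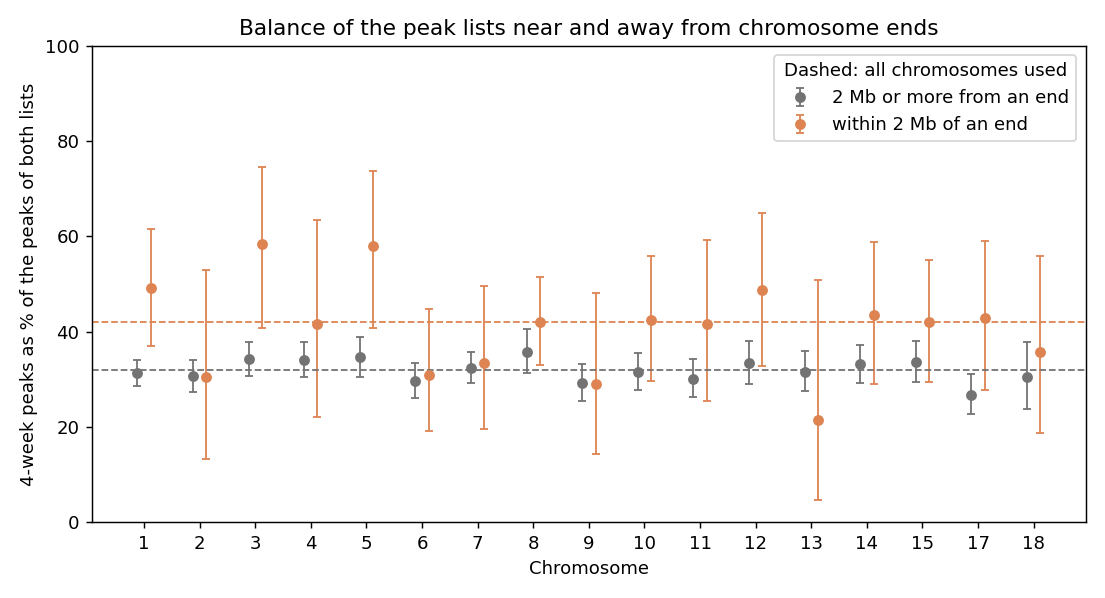
4-week peaks as a percentage of the peaks of both lists (vertical axis) by chromosome, within 2 Mb of an end (orange) and 2 Mb or more from one (grey), with exact 95% intervals. Dashed lines give the pooled values of 41.96 and 32.0%, and the orange point is the higher one on 14 of 17 chromosomes.

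The 4-week part was not even within the 2 Mb. In the outermost 0.1 Mb it was 25% (15.99 to 35.9%), and from 0.1 to 0.25 Mb 38.1% (27.7 to 49.3%). It was 43.3% from 0.25 to 0.5 Mb (33.6 to 53.3%) and 45.7% from 0.5 to 1 Mb (38.7 to 52.9%). From 1 to 1.5 Mb it was 48.8% (40.8 to 56.7%), and from 1.5 to 2 Mb 39.7% (31.4 to 48.4%). From 2 to 3 Mb it was 33.2% (27.5 to 39.3%), close to the value elsewhere. The bands from 0.25 to 1.5 Mb thus had intervals above the value elsewhere, while those of the other bands within 2 Mb included it. The low outermost value leaned on chromosome 8, which gave 21 of the 35 start-side peaks there at 6 h and 1 of the 6 at 4 weeks. Without chromosome 8 the outermost stretch held 14 peaks at 6 h and 5 at 4 weeks on the start side, and 24 and 14 on the far side.

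Single ends were then compared with the 32.0% of peaks away from ends. Of the 27 ends with at least 10 peaks, 6 had an interval above this value and 1 below it. Among the 381 windows of 2 Mb away from ends with at least 10 peaks, 1.84% had an interval above it and 3.67% below it. Ends held more peaks than windows in general (medians of 11 and 7 against 4 and 2), and intervals narrow as peaks increase. Ends and windows were thus not compared at like counts, and how much of the gap this makes was not tested. The 6 ends with relatively more 4-week peaks were the far ends of chromosomes 8 (63.2%, 50.7 to 74.6%) and 12 (54.5%, 32.2 to 75.6%) and 4 start ends. These start ends were those of chromosomes 3 (55.6%, 35.3 to 74.5%), 5 (55.6%, 38.1 to 72.1%), 1 (53.7%, 39.6 to 67.4%) and 15 (46.8%, 32.1 to 61.9%). The single end below was the start end of chromosome 8 (13.7%, 5.70 to 26.3%). In absolute numbers, 6 of the 27 ends had more 4-week than 6 h peaks, against 6.56% of windows away from ends with at least 10 peaks. With the ends of fewer peaks included, 8 of 34 ends did, 4 of them start ends and 4 far ends.

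Chromosome 8 held the end with most peaks in each list, its start end at 6 h and its far end at 4 weeks. Near its start, 36 of the 44 peaks at 6 h lay in the outermost 0.3 Mb, where the 4-week list had 5. They included the only 2 tight clusters near any end, a tight cluster being a run of 5 or more peaks in 1 list whose neighbours are never over 10 kb apart. One spanned 20134 to 47585 and had 15 early peaks and 1 late peak, and the other, at 158879 to 178913, had 7 and 1. Near the far end of the same chromosome, the 4-week list had no peak in the last 0.5 Mb, where 6 h had 6. From 0.5 to 1.2 Mb of that end the late list had 32 peaks and the early list 13, and from 1.2 to 2 Mb 11 and 6.

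The other ends rich in 4-week peaks differed in where these lay. At the start of chromosome 1, 20 of the 29 peaks at 4 weeks were in the first 0.5 Mb, where 6 h had 6, and from 1 to 2 Mb 6 h had more (10 against 4). At the start of chromosome 5 the 4-week peaks were mostly farther in, with 18 from 0.9 to 2 Mb against 11 at 6 h. At the start of chromosome 15 both lists were sparse in the first 1 Mb (3 peaks at 6 h, 4 at 4 weeks) and dense in the second (22 and 18). These bands were chosen after the positions were seen.

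**Figure D4:**
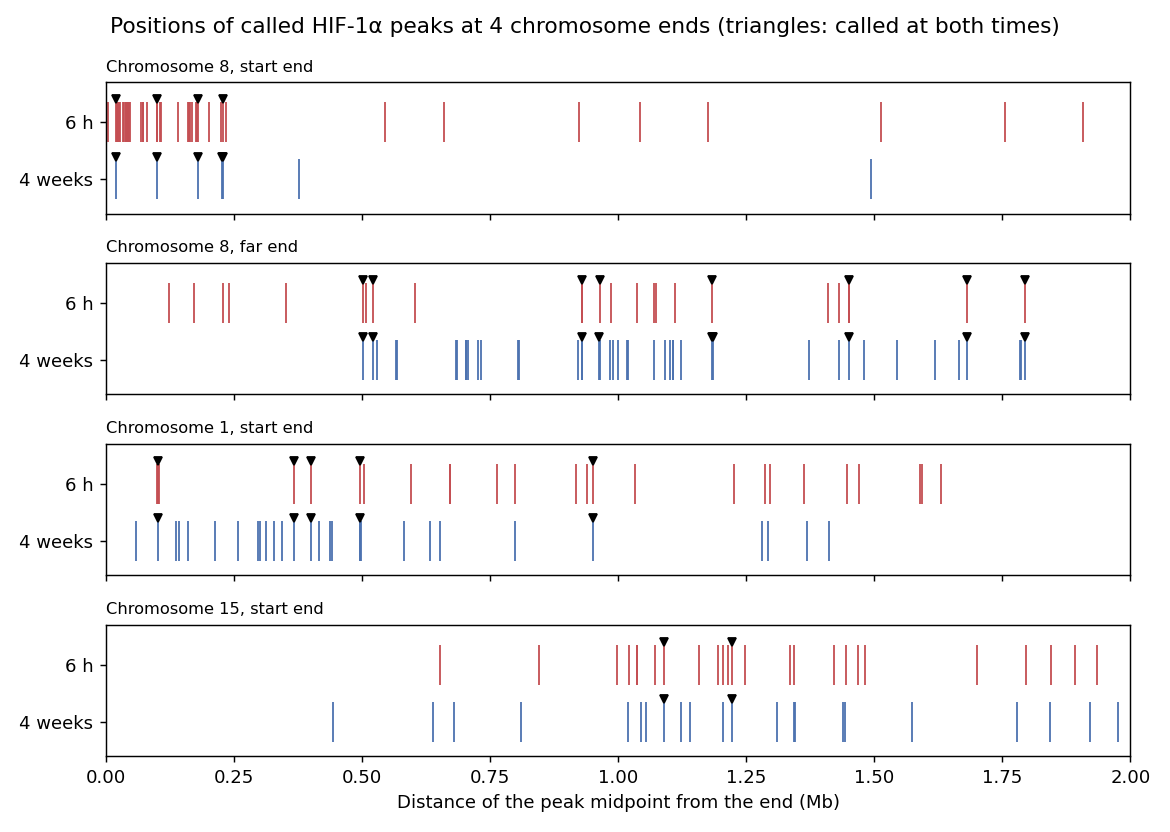
Midpoints of called HIF-1α peaks by distance from the end in Mb (horizontal axis) at 4 chromosome ends, 6 h above and 4 weeks below, with triangles over peaks that overlap a peak of the other list. At the start end of chromosome 8 most 6 h peaks lie in the outermost 0.3 Mb, and at its far end most 4-week peaks lie from 0.5 to 1.2 Mb.

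The fourth question is whether the same sites were called at both times near the ends. Of all 6 h peaks on the 17 chromosomes 8.22% overlapped a 4-week peak by at least 1 bp, and of all 4-week peaks 17.0% overlapped a 6 h peak. Near the ends 57 of 444 peaks at 6 h were shared (12.8%, 9.87 to 16.3%), against 532 of 6721 elsewhere (7.92%, 7.28 to 8.59%). For the 4-week list the values were 60 of 321 (18.7%, 14.6 to 23.4%) and 532 of 3159 (16.8%, 15.6 to 18.2%). The 6 h intervals near and away did not overlap, and the 4-week intervals did. At 6 h the shared part was 1.62 times as high near the ends, while the 4-week peaks available to be overlapped were 3.58 times as dense there. With isolated peaks only, the shared part at 6 h was 8.47% near ends (5.61 to 12.2%) and 6.75% elsewhere (6.08 to 7.46%), and with a reciprocal overlap of 50% it was 6.08% (4.05 to 8.72%) and 4.17% (3.70 to 4.67%). Both pairs of intervals overlap. At 4 weeks isolated peaks gave 11.9 and 12.5%, and leaving out chromosome 8 gave 16.97 and 16.92%.

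Peaks with a close neighbour in the other list were also more frequent near ends. Of the members with no overlap, 20.7% at 6 h (16.7 to 25.1%) and 26.8% at 4 weeks (21.5 to 32.6%) had a peak of the other list within 10 kb. Away from ends it was 10.2% (9.45 to 10.98%) and 15.4% (14.02 to 16.8%). Denser lists put more peaks near one another, and how much of this follows from density was not tested. Shared 6 h peaks lay at 24 of the 34 ends. The far end of chromosome 8 had most, with 8 at 6 h and 9 at 4 weeks, followed by the start end of chromosome 1 with 5 and 5.

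Members were of much the same width as other peaks at 6 h, and at 4 weeks they were slightly wider at the median. At 6 h the median was 258 bp near ends (248 to 273) and 253 bp elsewhere (250 to 256). At 4 weeks it was 272 bp (262 to 285) and 259 bp (256 to 263). The narrowest width in the lists, 199 bp, was held by 23.9% of 6 h members (19.98 to 28.1%) and 12.1% of 4-week members (8.78 to 16.2%). Elsewhere 23.3% (22.3 to 24.3%) and 17.6% (16.3 to 18.9%) had this width. For this part the 4-week intervals near and away were just separate, while those of the 4-week medians overlapped. At 4 weeks start-end members had a median of 283 bp (269 to 303) and far-end members 259 bp (246 to 281).

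Shared members were wider than unshared ones, as were shared peaks elsewhere. Near the ends the medians were 339 and 252 bp at 6 h, and 335 and 266 bp at 4 weeks. A wider peak more readily meets the rule of 1 bp of overlap, and how much of this width difference follows from that was not tested. The gap in sharing between members and other 6 h peaks was in the same direction in each tercile of width, but the intervals overlapped in all 3. Among 6 h peaks of 199 to 217 bp, 6.80% were shared near ends (3.31 to 12.2%) and 3.31% elsewhere (2.61 to 4.13%). In the middle tercile, 218 to 301 bp, it was 10% (5.58 to 16.2%) and 7.05% (6.02 to 8.19%). Among those of 302 bp and more, 21.0% were shared near ends (14.9 to 28.2%) and 13.5% elsewhere (12.1 to 14.97%). For 4-week peaks the intervals overlapped in every tercile as well, with 30.5% (22.4 to 39.7%) and 27.4% (24.7 to 30.3%) in the widest.

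**Figure D5:**
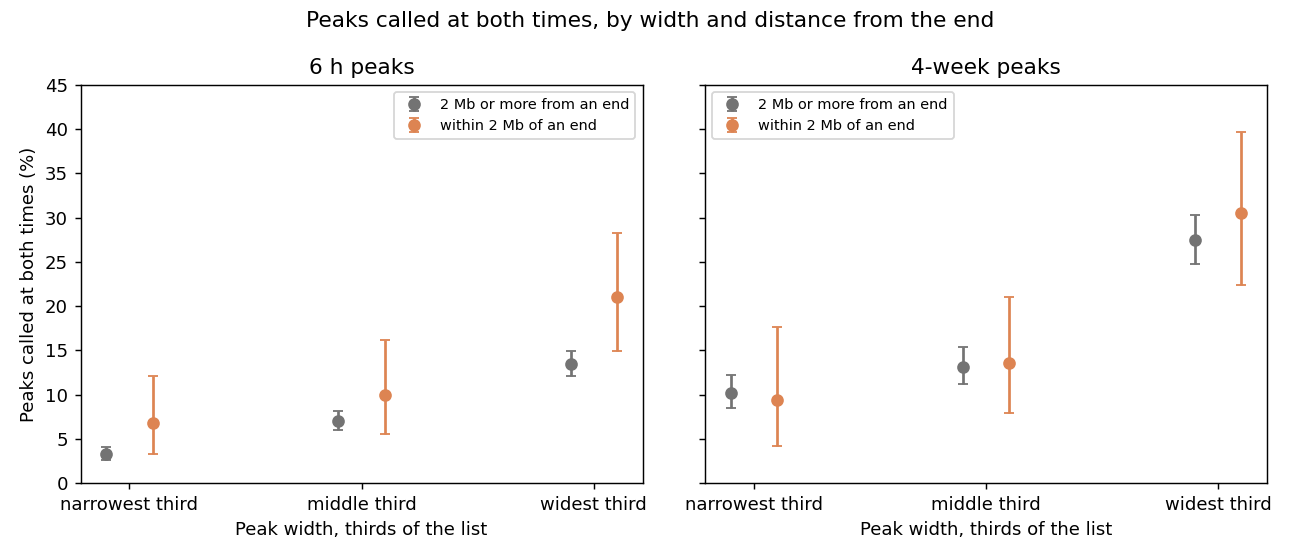
Percentage of peaks that overlap a peak of the other list (vertical axis) by tercile of peak width, within 2 Mb of an end (orange) and 2 Mb or more from one (grey), for 6 h peaks (left) and 4-week peaks (right). Bars are exact 95% intervals. Sharing is highest among the widest peaks, 21.0 and 13.5% at 6 h and 30.5 and 27.4% at 4 weeks. Wider peaks more readily meet the rule of 1 bp of overlap.

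The widest 6 h members were both on chromosome 8 and were both called at 4 weeks. The first, at 143120329 to 143122246 near the far end (1918 bp), spanned 2 peaks of the 4-week list, at 143120516 to 143121187 (672 bp) and 143121375 to 143122013 (639 bp). The second, at 226705 to 228140 near the start (1436 bp), also overlapped 2, at 226694 to 227127 (434 bp) and 227317 to 227940 (624 bp). In both cases 1 wide early peak stood against 2 narrower late ones. The next 3 overlapped no 4-week peak. The first of them, of 1012 bp, lay at 171792699 to 171793710 on chromosome 4. Another of 949 bp was found at 123476 to 124424 near the start of chromosome 14, and the last, 917 bp wide, at 1204363 to 1205279 on chromosome 15. A 4-week peak of 296 bp, centred 1204.13 kb from the start of chromosome 15, lay close beside this last peak without overlap.

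Of the 5 widest 4-week members, 4 were called at 6 h. The widest was on chromosome 4 at 171704169 to 171705288 (1120 bp), 713 kb from the far end, where the early peak ran from 171704145 to 171704996 (852 bp). The overlap was 828 bp, the longest near any end. The second, on chromosome 5 at 1973841 to 1974878 (1038 bp), contained a 6 h peak of 199 bp at 1974519 to 1974717. The third was on chromosome 6 at 191058 to 192078 (1021 bp), around a 6 h peak of 376 bp. The fourth, on chromosome 12 at 124376285 to 124377186 (902 bp), was called at 4 weeks only. The fifth, on chromosome 14 at 656868 to 657724 (857 bp), contained a 6 h peak of 498 bp. Near ends the 6 h peak was the wider one in 31 of 60 overlapping pairs and the 4-week peak in 29.

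The other pairs among the 10 longest overlaps lay on 4 chromosomes. On chromosome 11 a 6 h peak at 994688 to 995223 contained the 4-week peak at 994703 to 995200 (498 bp). On chromosome 1 the pair was at 101061 to 101489 at 6 h and 100981 to 101507 at 4 weeks (429 bp shared). On chromosome 14 a second pair began at the same base, 692242, and ended at 692662 at 6 h and 692946 at 4 weeks (421 bp shared). On chromosome 10, near the far end, the peaks were at 92231502 to 92231923 and 92231512 to 92232191 (412 bp shared). The remaining 6 were those of the wide peaks of chromosomes 4, 8 and 14 given above. Genes at these positions and the sequence under the peaks were not analysed here.

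Peaks of both lists lay close to the limit of 2 Mb on either side of it. The outermost 6 h peak beyond it lay 2007 kb from the start of chromosome 15 and the innermost within it 1975 kb from the start of chromosome 5. On the far side these were 2026 kb on chromosome 14 and 1961 kb on chromosome 12. The last 0.5 Mb inside it held 82 early and 54 late peaks, and the first 0.5 Mb outside it 108 and 52. The higher 6 h number outside includes a tight cluster of 52 peaks on chromosome 17 at 2304582 to 2412362, where the 4-week list had 4. Without that cluster the 6 h number outside is the lower one.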

How the data were processed

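HIF-1α ChIP and input libraries from infarcted macaque heart were sequenced at 6 h and 4 weeks. Reads were handled with Bowtie2 2.0 and MACS2, per the submitters' processing notes, whereas what settings, genome build, filters and pooling applied is not given in the sources used here. From these the authors deposited 2 peak lists of 3 columns (sequence name, start, end), with no score, so read depth is unknown. Starts were taken as counted from 0, which if wrong would add 1 bp to each width. Groups follow the titles in the labels, which give the time and mark the input libraries. The ChIP titles give infarct and time and do not name the antibody.

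Peaks were placed by midpoint. Sharing was an overlap of at least 1 bp. Shares have exact Clopper-Pearson, densities exact Poisson and medians exact order-statistic 95% intervals. With 1 ChIP library per time point no test between times could be made. Windows of 2 Mb tiling the rest of each chromosome gave the background.

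The members and settings were chosen with earlier results of these data known. Named were the 5 richest ends per list, ends of at least 10 peaks whose 4-week part had an interval missing that away from ends, the 5 widest members per list, the 10 pairs with the longest overlap, and the widest members within 100 kb of an end. No genome or annotation of the build was used here, so no gene is named. Scripts were tested on simulated lists with known answers. Tools were scipy 1.17.1, numpy 2.4.6, pandas 2.3.3 and matplotlib 3.10.9 under Python 3.11.15.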

Additional observations from a re-analysis of the deposited data

Results flagged for a closer look

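Chromosome X was outside the rule for members and entered no comparison, but its ends held called peaks. The zones within 2 Mb of its ends made up 2.70% of its extent. Within 2 Mb of its ends lay 21 peaks at 6 h, or 18.4% of those on X (11.8 to 26.8%), 6 near the start end and 15 near the far end. At 4 weeks there were 9, or 25.7% (12.5 to 43.3%), 7 near the start end and 2 near the far end. The density near the ends of X was 5.25 peaks per Mb at 6 h against 0.645 elsewhere on X, and 2.25 against 0.180 at 4 weeks. Males carry a single copy of X, for which no correction was made.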

How the results depend on the processing

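Across 197 values from other settings, 172 fell inside the interval of the value reported and 25 outside. Of the 197, 119 came from leaving out 1 chromosome, which keeps most peaks, and 116 of these fell inside. Most of the 27 settings counted below are also of this kind, so those counts say little about other choices. Measuring the start end from the first peak and leaving out the end-setting peaks were added after the data were seen. In all 27 settings that bear on it, the interval of the 4-week part near ends lay above that away from ends, at 37.7 to 47.2% against 31.8 to 35.1%. The 4-week part was 37.7% within 5 Mb and 47.2% in the widest 50% of each list. The share of peaks near ends was 3.89% at 6 h and 5.40% at 4 weeks within 1 Mb, 8.61 and 11.7% within 3 Mb, and 12.3 and 15.3% within 5 Mb, which follows from the longer stretch. It was 5.53 and 7.14% with isolated peaks only, 6.79 and 10.7% with chromosomes 16, 19 and 20 added, and 5.50 and 8.28% without chromosome 8. The start-end part at 6 h was 48.2% with isolated peaks, but its interval lay above 50% in 12 of 27 settings, 8 of them without 1 chromosome, and below it in none. At 4 weeks it was 58.3% without chromosome 8, the 1 setting of 27 above 50%. The shared part near ends was 8.47% at 6 h and 11.9% at 4 weeks with isolated peaks, 6.08 and 8.41% with a reciprocal overlap of 50%, 20.05 and 28.0% with midpoints within 1 kb, and at 4 weeks 23.4% within 1 Mb. It was higher near than away from ends in 27 of 27 settings at 6 h and in 25 of 27 at 4 weeks. The exceptions were isolated peaks and the reciprocal overlap (8.41 against 8.86%). One of the 25, without chromosome 8, was nearly even at 16.97 against 16.92%. The intervals near and away were separate in 24 of 27 settings at 6 h, all but isolated peaks, the reciprocal overlap and within 5 Mb, and in 0 of 27 at 4 weeks. Median widths in the widest 50% were 355 and 325 bp by construction. Beyond the smaller lists that settings make, the cause was not tested. No paired analysis was possible because there is a single ChIP library at either time. Since read depth is unknown, peaks missed at low depth cannot be counted.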
